A study of Homo sapiens with 42 samples.

Results

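The collagen genes were taken as every row of the deposited expression table whose gene name has the form of a collagen alpha chain, which gave 44 of the 60240 genes. Their RNA was compared after decitabine and after the solvent DMSO in the human acute myeloid leukaemia (AML) lines SKM-1, KG-1, OCI-AML3, MOLM-13 and MOLM-14, all labelled as wild type. Each of the 5 lines has 3 decitabine and 3 DMSO libraries, 30 together. Decitabine, a deoxycytidine analogue that is built into DNA and depletes DNA methyltransferases, was dosed at 100 nM on each of days 0, 1 and 2, and RNA of both arms was taken at 72 hours. Each line stands for 1 leukaemia grown in culture, and MOLM-13 and MOLM-14 are sister lines from the same patient. A further 12 libraries, labelled OCI-AML2 and THP-1, were not analysed here. The sample labels name MOLM-14, whereas the design text of the series does not. Whether the 3 libraries of a group came from separate cultures is not stated, so p-values measure the spread between libraries, which may be technical.

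Collagens are proteins of the extracellular matrix in which alpha chains wind into a triple helix. Fibrillar collagens build the fibrils of skin, bone and tendon, network collagens form the sheets of basement membranes, collagen VI forms beaded filaments, FACIT collagens (fibril-associated collagens with interrupted triple helices) decorate fibril surfaces, and multiplexins sit in basement membrane zones. In bone marrow they are known mainly as products of stromal cells. Because decitabine acts on DNA methylation, promoter sequences are shown before the values.

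RefSeq promoter windows (GRCh38.p14, 250 bases before and 50 after a start site) were at hand for 32 of the 44 genes. None was at hand for COL14A1, the gene with the largest fitted differences, or for COL6A1, COL9A3, COL1A2 and COL5A2, which were also called. The 5 stretches below, 994 bases in all, belong to called genes with a window: COL8A2 and COL18A1, which rose in SKM-1, COL24A1, which rose in OCI-AML3, COL9A2, which rose on the mean of the lines, and COL27A1, whose response changed sign between lines. Each is the longest run of the 250 bases before a RefSeq start site that no GENCODE 29 exon covers. The stretches of COL9A2 and COL24A1 lie within the GENCODE 29 bounds of their genes, in introns, not before the gene. All are written 5′ to 3′ on the strand of the gene, with CpG dinucleotides, the sites of DNA methylation, in capitals. The COL8A2 stretch is chr1:36125223-36125472 (minus strand, 35 CpG), that of COL18A1 chr21:45404915-45405136 (plus strand, 32 CpG), and that of COL9A2 chr1:40317389-40317536 (minus strand, 12 CpG). The COL24A1 stretch is chr1:86156773-86156896 (minus strand, 4 CpG) and that of COL27A1 is chr9:114155287-114155536 (plus strand, 13 CpG).
COL8A2: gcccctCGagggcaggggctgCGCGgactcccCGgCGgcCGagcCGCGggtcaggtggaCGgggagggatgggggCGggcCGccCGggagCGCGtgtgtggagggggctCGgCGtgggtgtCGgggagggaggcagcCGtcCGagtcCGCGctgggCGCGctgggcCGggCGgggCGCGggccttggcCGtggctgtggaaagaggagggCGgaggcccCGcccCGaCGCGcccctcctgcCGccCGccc
COL18A1: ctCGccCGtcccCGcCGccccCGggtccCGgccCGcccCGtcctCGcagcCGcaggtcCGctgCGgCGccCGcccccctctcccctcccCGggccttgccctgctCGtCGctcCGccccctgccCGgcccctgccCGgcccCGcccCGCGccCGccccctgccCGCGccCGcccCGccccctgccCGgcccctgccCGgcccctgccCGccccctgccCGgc
COL9A2: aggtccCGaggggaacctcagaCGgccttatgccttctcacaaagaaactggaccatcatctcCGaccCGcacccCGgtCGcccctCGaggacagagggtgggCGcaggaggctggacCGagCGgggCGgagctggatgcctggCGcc
COL24A1: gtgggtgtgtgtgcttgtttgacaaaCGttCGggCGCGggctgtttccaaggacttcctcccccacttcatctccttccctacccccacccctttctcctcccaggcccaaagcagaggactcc
COL27A1: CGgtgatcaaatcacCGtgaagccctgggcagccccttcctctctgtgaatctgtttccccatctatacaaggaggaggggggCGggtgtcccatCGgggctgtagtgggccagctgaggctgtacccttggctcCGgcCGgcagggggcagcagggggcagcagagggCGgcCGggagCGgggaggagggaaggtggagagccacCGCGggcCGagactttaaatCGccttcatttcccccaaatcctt
The COL8A2 and COL18A1 stretches hold the most CpG of the 5 and that of COL24A1 the fewest, although the whole 300-base windows of COL24A1, which reach into exons, hold 18 CpG each. COL4A1 and COL4A2 lie head to head on chromosome 13, with 126 bases and 20 CpG between the RefSeq start of COL4A1 (position 110307157, minus strand) and that of COL4A2 (position 110307284, plus strand).

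The values are normalised counts: estimated counts per gene that the authors divided by DESeq2 factors, with no correction for gene length. Libraries of MOLM-13 and SKM-1 held 42.9 to 75 M estimated reads in genes (M, 1000000 reads). In the other 3 lines, 12 libraries held 12.6 to 31.2 M and 6, replicate 2 of both arms, held 1.97 to 4.59 M. In these 6 shallow libraries 1 read is worth 4.3 to 10.3 normalised counts, so a low value or a 0 there rests on very few reads. PTPRC, the pan-leukocyte phosphatase CD45, had line means of 3651 to 11680 normalised counts in decitabine and 3931 to 10820 in DMSO libraries. It is 1 of 10 listed myeloid markers, whose sum was 46260 to 56070 in decitabine and 62420 to 63510 in DMSO libraries of SKM-1. In KG-1 the sum was 38110 to 40200 in decitabine and 42620 to 45990 in DMSO libraries. With decitabine first, sums were 22180 to 23820 and 23300 to 24100 in MOLM-13 and 22610 to 24220 and 20120 to 21160 in MOLM-14. In OCI-AML3 they were 18860 to 23070 and 18550 to 19900. Of the 44 collagen genes, 27 reached 10 normalised counts in at least 3 libraries and were tested with limma on log2(normalised count + 1) among 22168 genes, with p-values adjusted over all of these by the Benjamini-Hochberg method and a threshold of 0.05. Of the 27, 26 would have passed through their DMSO libraries alone (COL8A1 would not), and 17 genes were below the filter. Differences are given on this log2 scale, which understates the change of low genes.

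Collagen RNA was present in DMSO libraries, and which chains were made differed between the lines. Per kb of exon, the highest DMSO means in KG-1 were those of COL24A1 (33.4 ± 2.47 normalised counts per kb), COL5A1 (18.3 ± 4.04) and COL18A1 (15.1 ± 3.91; SD, n = 3 here and below). In MOLM-13 they were those of COL23A1, a transmembrane collagen (131 ± 3.603), COL8A2 (35.8 ± 3.41) and COL9A2 (30.7 ± 3.46). COL27A1, a fibrillar collagen of cartilage, led in MOLM-14 with 73.5 ± 21.3 per kb and in OCI-AML3 with 66.4 ± 20.1, next to COL23A1 with 56.6 ± 21.6 and 45.2 ± 7.19. The order of these neighbours lies within the spread of the libraries. SKM-1 had COL9A2 first (118 ± 3.42), then COL27A1 (29.8 ± 3.75), COL23A1 (27.6 ± 4.27), COL4A5 (25.8 ± 4.79) and COL6A2 (25.7 ± 17.96), of which the last 4 do not differ beyond their spread. By the limma F-test the DMSO level differed between lines for 25 of the 27 tested collagen genes, against 77.9% of all tested genes, and COL11A2 and COL8A1 were not called.

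**Figure D1:**
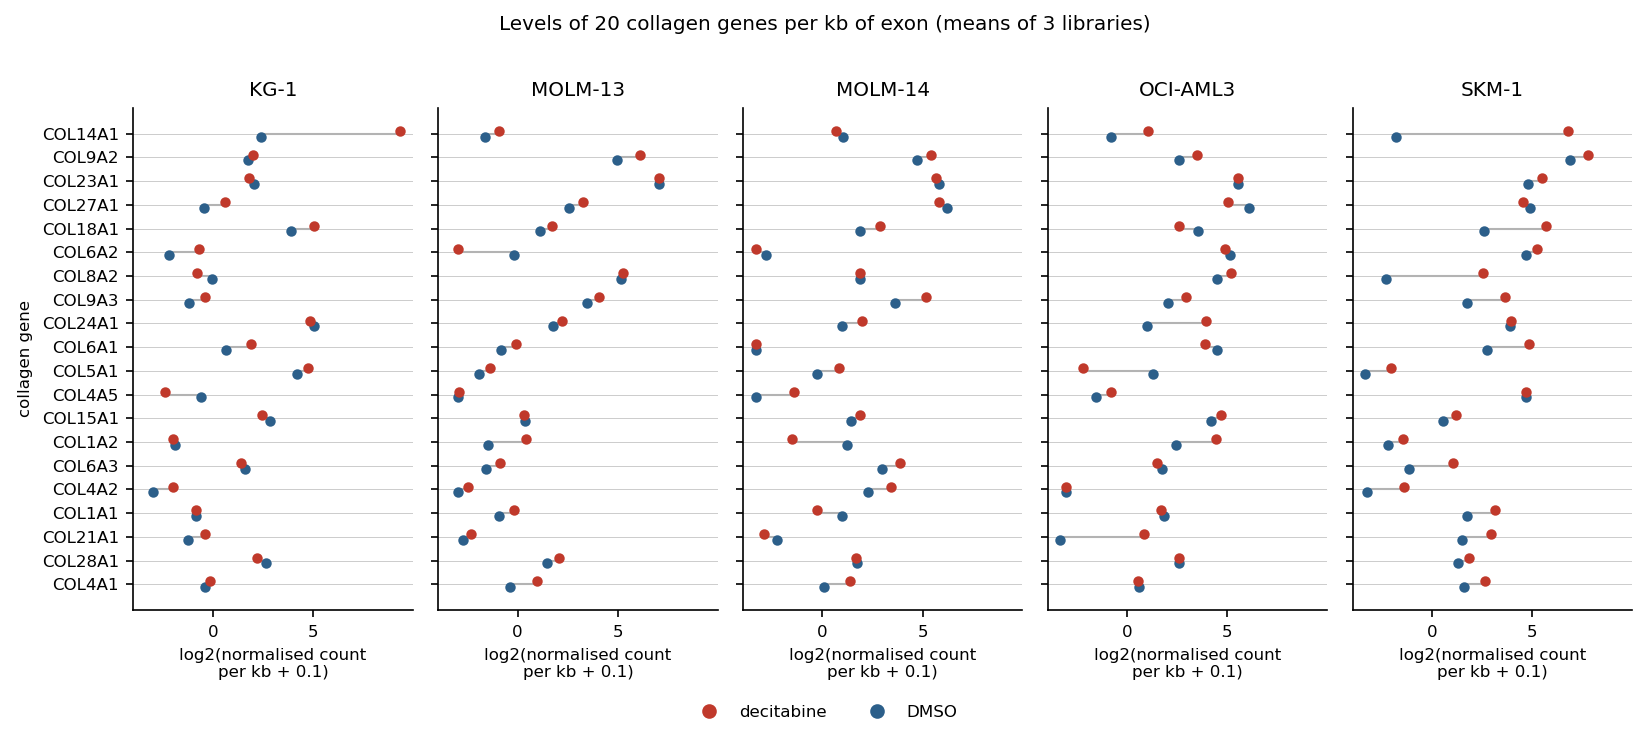
Mean level per kb of exon of 20 collagen genes in decitabine (red) and DMSO (blue) libraries of each line, as log2(normalised count per kb + 0.1) on the same axis in all panels (means of 3 libraries). The widest gaps include COL14A1 in KG-1 and SKM-1 and COL8A2 in SKM-1, with decitabine above DMSO.

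After decitabine the called collagen genes were higher on the mean of the 5 line differences: 11 of the 27 tested genes, against 12.0% of all tested genes, and 0 were lower, against 7.52%. At an unadjusted p below 0.05 limma gave 13 higher, against 18.8% of all tested genes, and 0 lower, against 11.2%. The count of 11 higher genes became 16 without the 6 shallow libraries (19.1% of all tested genes), 7 with quantile normalization (9.51%), 7 without MOLM-13 (9.41%), 3 without SKM-1 (6.50%) and 2 with only KG-1, OCI-AML3 and MOLM-14 (3.72%). The median mean difference of the 27 genes was 0.53, beside 0.06 for all 22168 tested genes. Of the 27, 24 were above 0, beside 12933 of the 22168. In bulk RNA, more cells with a transcript and more transcript per cell cannot be told apart. Summed over the 44 genes without COL14A1, normalised counts were 3255 ± 162 in decitabine and 2016 ± 173 in DMSO libraries of SKM-1 and 1403 ± 38.4 in decitabine and 1061 ± 21.95 in DMSO libraries of MOLM-13 (SD, n = 3). They were 1216 ± 170.4 in decitabine and 962 ± 90.8 in DMSO libraries of KG-1, 2125 ± 164 in decitabine and 1880 ± 388 in DMSO libraries of MOLM-14 and 2000 ± 110.1 in decitabine and 2138 ± 464 in DMSO libraries of OCI-AML3. In MOLM-14 and OCI-AML3 the arms lie within the spread of the libraries. The sums of single libraries of KG-1 also overlap between the arms. Collagen genes with a mean of at least 10 numbered 23 in decitabine and 18 in DMSO libraries of SKM-1, and 16 in decitabine and 12 in DMSO libraries of KG-1. They numbered 11 in decitabine and 9 in DMSO libraries of MOLM-13, 20 and 19 in OCI-AML3, and 17 in both arms of MOLM-14. The matching share over all genes is not given here.

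**Figure D2:**
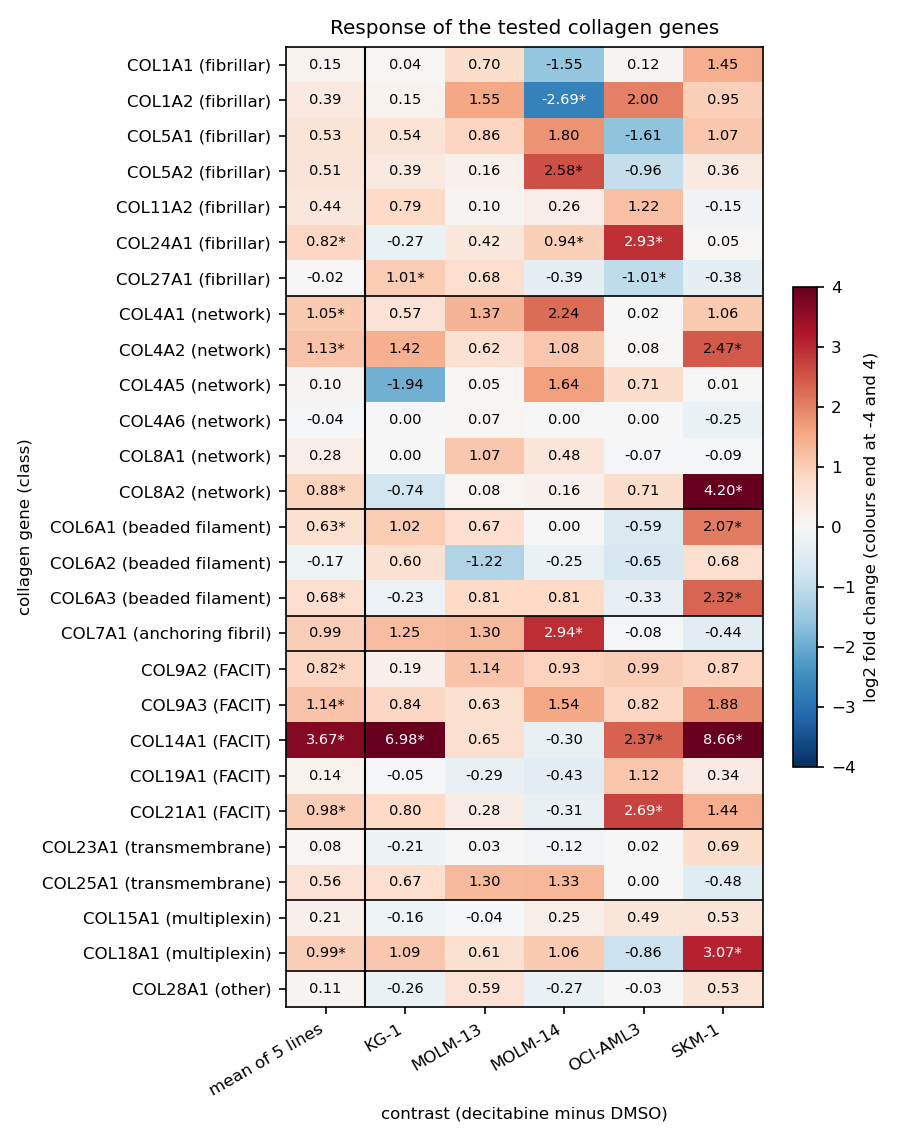
Log2 fold change (decitabine minus DMSO) of the 27 tested collagen genes on the mean of 5 lines and in each line, grouped by collagen class, with an asterisk at a limma adjusted p below 0.05. The mean column holds 11 asterisks, all positive, SKM-1 holds 6, all positive, and MOLM-13 holds 0.

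Counts of called genes differed between the lines. SKM-1 had 6 genes higher (5.70% of all tested genes) and 0 lower (3.32%), and KG-1 had 2 higher (3.12%) and 0 lower (0.663%). OCI-AML3 had 3 higher (3.74%) and 1 lower (1.64%), and MOLM-14 had 3 higher (6.26%) and 1 lower (4.77%). MOLM-13 had 0 higher (1.45%) and 0 lower (1.67%) by limma. At an unadjusted p below 0.05, SKM-1 had 9 higher (11.2%) and 0 lower (7.51%), KG-1 had 5 (9.13%) and 1 (4.80%), and OCI-AML3 had 5 (10.7%) and 2 (7.85%). MOLM-14 had 8 higher (13.6%) and 1 lower (11.3%) at that level, and MOLM-13 had 3 (6.11%) and 0 (6.52%). These counts rest on a spread shared by all lines, whereas the median SD of a tested gene was 0.165 in SKM-1 and 0.18 in MOLM-13 but 0.386 in KG-1, 0.435 in OCI-AML3 and 0.476 in MOLM-14. With library weights MOLM-13 had 10 collagen genes higher (13.8%) and 0 lower (11.7%), and SKM-1 had 12 higher (22.7%) and 1 lower (14.7%). With each line fitted alone, SKM-1 had 11 higher (25.1%) and 1 lower (18.7%), MOLM-13 had 5 higher (16.0%), OCI-AML3 had 2 (0.284%), KG-1 had 1 (0.574%) and MOLM-14 had 0 (0.986%). In these fits the filter was applied within the line, so fewer collagen genes were tested. Of the genes called with the shared spread, COL1A2, COL5A2 and COL7A1 were not tested in MOLM-14 alone. Nor were COL21A1 in OCI-AML3 alone and COL4A2 in SKM-1 alone.

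Without a model, all 3 decitabine values lay above all 3 DMSO values for 13 collagen genes in SKM-1 (29.2% of all tested genes), 11 in MOLM-13 (22.8%), 6 in OCI-AML3 (10.1%), 5 in KG-1 (10.2%) and 4 in MOLM-14 (11.2%). They lay below for 2 in SKM-1 (18.9%), 2 in OCI-AML3 (7.42%), 1 in MOLM-14 (9.50%), 0 in KG-1 (6.44%) and 0 in MOLM-13 (17.0%).

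Among the fibrillar collagens COL24A1 (ENSG00000171502.15, chromosome 1, 85729233 to 86156943, minus strand), a chain known from developing bone and cornea, rose in OCI-AML3. There it had 178, 119 and 136 normalised counts in the decitabine libraries, against 18.3, 19.5 and 15.9 in the DMSO libraries. The groups lie far apart (2.93, SE 0.28, limma adjusted p = 2.44e-07). MOLM-14 had 48.2, 19.4 and 41.1 after decitabine against 18.98, 10.8 and 24.5 after DMSO, which overlap (0.94, SE 0.28, limma adjusted p = 0.0339; fitted alone 0.94, limma adjusted p = 0.468). This call was also lost with no filter (0.94, limma adjusted p = 0.0643), with quantile normalization (0.62, limma adjusted p = 0.175) and in 3 of the 30 fits without 1 library (limma adjusted p up to 0.204), namely without decitabine replicate 1 or 3 or DMSO replicate 2 of MOLM-14. Values in MOLM-13 were 35.4, 48.8 and 46.6 after decitabine against 32.7, 29.8 and 33.4 after DMSO, in SKM-1 142, 162 and 130 after decitabine against 135, 138 and 144 after DMSO, and in KG-1, the line with the highest DMSO level, 308, 299 and 202 after decitabine against 341, 294 and 323 after DMSO. None of these 3 lines was called. The lines differed (limma F-test, adjusted p = 2.98e-05), with OCI-AML3 above the mean of the other 4 (2.64, SE 0.32, limma adjusted p = 2.08e-05). On the mean of 5 lines COL24A1 was higher (0.82, SE 0.13, limma adjusted p = 4.01e-05), a call lost without OCI-AML3 (0.29, limma adjusted p = 0.18).

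COL27A1 (ENSG00000196739.15, chromosome 9, 114155560 to 114312511, plus strand), the fibrillar collagen of cartilage, responded in opposite directions. It rose in KG-1, its lowest line, with 24.3, 22.7 and 12.7 after decitabine against 7.04, 9.84 and 10.5 after DMSO (1.01, SE 0.24, limma adjusted p = 0.0124). It fell in OCI-AML3, with 409, 504 and 432 after decitabine against 702, 1244 and 840.1 after DMSO (-1.01, SE 0.24, limma adjusted p = 0.0105). Neither pair of groups overlapped. The fall was not called with library weights (-0.91, limma adjusted p = 0.101), with OCI-AML3 fitted alone (-1.01, limma adjusted p = 0.144) or without its DMSO replicate 2 (-0.78, limma adjusted p = 0.0898), and the rise was not called with KG-1 fitted alone (1.01, limma adjusted p = 0.517) or in 3 of the 30 fits without 1 library (limma adjusted p up to 0.0813), namely without decitabine replicate 1 or 2 or DMSO replicate 1 of KG-1. MOLM-13 had 129.5, 137 and 128 after decitabine against 90.95, 75.9 and 78.1 after DMSO, all higher, and SKM-1 had 282, 331 and 346 after decitabine against 398, 376 and 476 after DMSO, all lower. Neither was called with the shared spread, and both were called with the line fitted alone (MOLM-13 0.68, limma adjusted p = 0.00361; SKM-1 -0.38, limma adjusted p = 0.0288) and with library weights (MOLM-13 0.70, limma adjusted p = 0.000329; SKM-1 -0.43, limma adjusted p = 0.00612). The values of MOLM-14, 922, 819 and 596 after decitabine against 919.9, 1364 and 799 after DMSO, overlap. On the mean of 5 lines the difference was near 0 (-0.02, SE 0.11, limma adjusted p = 0.943), and the lines differed (limma F-test, adjusted p = 0.000652).

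COL1A2 (ENSG00000164692.18, chromosome 7, 94394561 to 94431232, plus strand) encodes a chain of collagen I, the main collagen of bone and skin. In OCI-AML3 it had 272, 197 and 259 after decitabine against 52.7, 53.7 and 73.2 after DMSO, with no overlap (2.00, SE 0.76, limma adjusted p = 0.141; fitted alone 2.00, limma adjusted p = 0.03). In MOLM-14 it had 5.05, 0 and 3.196 after decitabine against 18.6, 49.4 and 5.93 after DMSO (-2.69, SE 0.76, limma adjusted p = 0.0229). This call was lost without decitabine replicate 2 of MOLM-14 (-1.91, limma adjusted p = 0.15) or its DMSO replicate 2 (-1.99, limma adjusted p = 0.147), both shallow, without all 6 shallow libraries (-1.21, limma adjusted p = 0.273) and with library weights (-1.63, limma adjusted p = 0.33). KG-1 had 1.21, 3.21 and 0.637 after decitabine against 0, 4.96 and 0.8897 after DMSO, MOLM-13 had 6.52, 5.29 and 29.5 after decitabine against 2.32, 3.97 and 2.49 after DMSO, and SKM-1 had 2.01, 3.79 and 3.14 after decitabine against 0, 1.21 and 2.78 after DMSO. Of these 3 lines only MOLM-13 has groups that do not overlap. COL1A1, the partner chain, ranged from 0 to 89.3 in decitabine and from 0 to 76.5 in DMSO libraries and was not called on the mean (0.15, SE 0.40, limma adjusted p = 0.847), and had 88.2, 83.1 and 89.3 after decitabine against 22.8, 33.97 and 39.1 after DMSO in SKM-1, which do not overlap (1.45, SE 0.90, limma adjusted p = 0.464; fitted alone 1.45, limma adjusted p = 0.000758).

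COL5A2 (ENSG00000204262.14, chromosome 2, 189031896 to 189225312, minus strand), a chain of collagen V, which regulates fibril diameter, had 7.902, 6.44 and 16.2 after decitabine against 0.789, 0 and 1.98 after DMSO in MOLM-14 (2.58, SE 0.73, limma adjusted p = 0.0233). These groups do not overlap, but the call was lost with library weights (2.44, limma adjusted p = 0.0518), with a pseudocount of 5 (1.32, limma adjusted p = 0.0577) and without decitabine replicate 3 (2.22, limma adjusted p = 0.0821) or DMSO replicate 2 of MOLM-14 (2.18, limma adjusted p = 0.11). The call held without the 6 shallow libraries (2.42, limma adjusted p = 0.0186). SKM-1 had 20, 32.9 and 57.2 after decitabine against 13.7, 28.7 and 43.7 after DMSO, and KG-1 had 9.98, 10.1 and 27.1 after decitabine against 2.93, 20.8 and 16.6 after DMSO. MOLM-13 had 3.14, 3.29 and 5.1 after decitabine against 3.61, 3.105 and 3.11 after DMSO and OCI-AML3 had 9.005, 0 and 5.64 after decitabine against 10.5, 4.33 and 6.92 after DMSO, and all 4 of these lines overlap. COL5A1, its partner, ranged from 0 to 328 in decitabine and from 0 to 253 in DMSO libraries (mean difference 0.53) and was made mainly in KG-1, with 328, 268 and 288 after decitabine against 163, 253 and 198 after DMSO (0.54, SE 1.10, limma adjusted p = 0.936). COL11A2 ranged from 4.604 to 52.6 in decitabine and from 3.16 to 38.8 in DMSO libraries, with an uncalled mean difference of 0.44.

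Of the network collagens, COL4A1 and COL4A2 encode the chains of the common collagen IV of basement membranes. COL4A2 (ENSG00000134871.19, chromosome 13, 110305812 to 110513209, plus strand) was higher on the mean of 5 lines (1.13, SE 0.27, limma adjusted p = 0.00299). It rose in SKM-1, with 7.39, 4.305 and 4.71 after decitabine against 0.218, 0 and 0.235 after DMSO (2.47, SE 0.59, limma adjusted p = 0.0068). The SKM-1 groups stand apart at a level of 11.1 to 19.7 estimated reads per decitabine library, and with a pseudocount of 5 the call was lost (1.01, limma adjusted p = 0.0839). MOLM-14 makes the most COL4A2, with 128, 372 and 108 after decitabine against 64.6, 162 and 51.3 after DMSO, which overlap (1.08, SE 0.59, limma adjusted p = 0.269). KG-1 had 0.8703, 3.57 and 4.56 after decitabine against 0, 0 and 1.48 after DMSO, MOLM-13 had 3.22, 0.228 and 1.101 after decitabine against 0.268, 0.108 and 1.15 after DMSO, and OCI-AML3 had 1.01, 0 and 0.256 after decitabine against 1.14, 0 and 0 after DMSO, all low and overlapping. Without SKM-1 the mean was not called (0.80, limma adjusted p = 0.147).

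COL4A1 (ENSG00000187498.16, chromosome 13, 110148963 to 110307233, minus strand) was higher on the mean of 5 lines (1.05, SE 0.37, limma adjusted p = 0.0443) and called in no single line. It had 94.3, 83.6 and 92.6 after decitabine against 47.4, 38.2 and 42.6 after DMSO in SKM-1, 31.05, 22.8 and 27.2 after decitabine against 12.8, 10.3 and 6.94 after DMSO in MOLM-13 and 29.8, 40.8 and 40.5 after decitabine against 19.4, 0 and 23.6 after DMSO in MOLM-14. In none of these 3 lines do the groups overlap, and the 0 is that of a shallow library. Fitted alone, SKM-1 was called (1.06, limma adjusted p = 0.000414) and so was MOLM-13 (1.37, limma adjusted p = 0.00554). KG-1 had 5.48, 20.99 and 9.54 after decitabine against 6.52, 21.6 and 1.71 after DMSO and OCI-AML3 had 12.5, 25.3 and 23.1 after decitabine against 29.5, 9.598 and 24.3 after DMSO, both overlapping. The call on the mean was lost in 21 of the 30 fits that left out 1 library each (limma adjusted p from 0.0152 to 0.0799), without MOLM-13 (0.97, limma adjusted p = 0.174), without MOLM-14 (0.76, limma adjusted p = 0.0756) and without SKM-1 (1.05, limma adjusted p = 0.165). It was also lost with a pseudocount of 0.5 (1.15, limma adjusted p = 0.0622), with no filter (1.05, limma adjusted p = 0.0748), with quantile normalization (0.72, limma adjusted p = 0.152) and without the trended and robust variance (1.05, limma adjusted p = 0.052). It held without the 6 shallow libraries (0.67, limma adjusted p = 0.00488). The levels of the pair did not follow the same order: COL4A2 had 10.5 ± 7.62 per kb in decitabine and 4.804 ± 3.14 in DMSO libraries of MOLM-14, and 0.283 ± 0.0869 in decitabine and 0.00784 ± 0.0068 in DMSO libraries of SKM-1. COL4A1 had 2.51 ± 0.425 per kb in decitabine and 0.974 ± 0.856 in DMSO libraries of MOLM-14, and 6.12 ± 0.3902 in decitabine and 2.901 ± 0.309 in DMSO libraries of SKM-1 (SD, n = 3).

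COL4A5 and COL4A6, the head-to-head pair of collagen IV genes on chromosome X, encode chains of specialised basement membranes. COL4A5 was made in SKM-1, with 287, 324 and 302 after decitabine against 249.5, 305 and 363 after DMSO, and stayed at 15.3 or lower in every library of the other lines. COL4A6 had 41.2, 46.5 and 35.9 after decitabine against 47.3, 48.1 and 51.7 after DMSO in SKM-1, all lower, and was at 0.464 or lower elsewhere. Neither was called in SKM-1 (COL4A5 0.01, SE 0.90, limma adjusted p = 1; COL4A6 -0.25, SE 0.29, limma adjusted p = 0.833), and their mean differences over 5 lines were 0.10 and -0.04.

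COL8A2 (ENSG00000171812.13, chromosome 1, 36095236 to 36125220, minus strand), a short-chain collagen of corneal and vascular membranes, rose in SKM-1. It had 29.6, 28.02 and 22.3 after decitabine against 0.622, 0.317 and 0.551 after DMSO, which is 64.3 to 78.9 estimated reads per library in decitabine libraries and at most 1.9 in DMSO libraries. The groups stand apart (4.20, SE 0.38, limma adjusted p = 1.43e-08), by an amount that depends on the pseudocount of 1 because the DMSO level is so low. MOLM-13 and OCI-AML3 make COL8A2 already in DMSO: MOLM-13 had 177, 184 and 170.4 after decitabine against 152, 183 and 167 after DMSO, and OCI-AML3 had 150.4, 206 and 151 after decitabine against 99.9, 121 and 86.7 after DMSO. The groups of MOLM-13 overlap and those of OCI-AML3 do not, and neither line was called. MOLM-14 had 13.6, 20.01 and 16.6 after decitabine against 9.81, 27.9 and 11.5 after DMSO, and KG-1 had 1.58, 4.19 and 0.829 after decitabine against 2.93, 6.47 and 2.897 after DMSO, both overlapping. Without the 6 shallow libraries COL8A2 was called lower in KG-1 (-0.85, limma adjusted p = 0.0292). The KG-1 libraries left there hold 1.0 to 4.9 estimated reads of the gene. SKM-1 stood above the mean of the other 4 lines (4.15, SE 0.42, limma adjusted p = 2.44e-07). The mean of 5 lines was higher (0.88, SE 0.17, limma adjusted p = 0.000416), but not without SKM-1 (0.05, limma adjusted p = 0.911). COL8A1, its relative, ranged from 0 to 13.3 in decitabine and from 0 to 11.4 in DMSO libraries and was not called (mean difference 0.28).

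**Figure D3:**
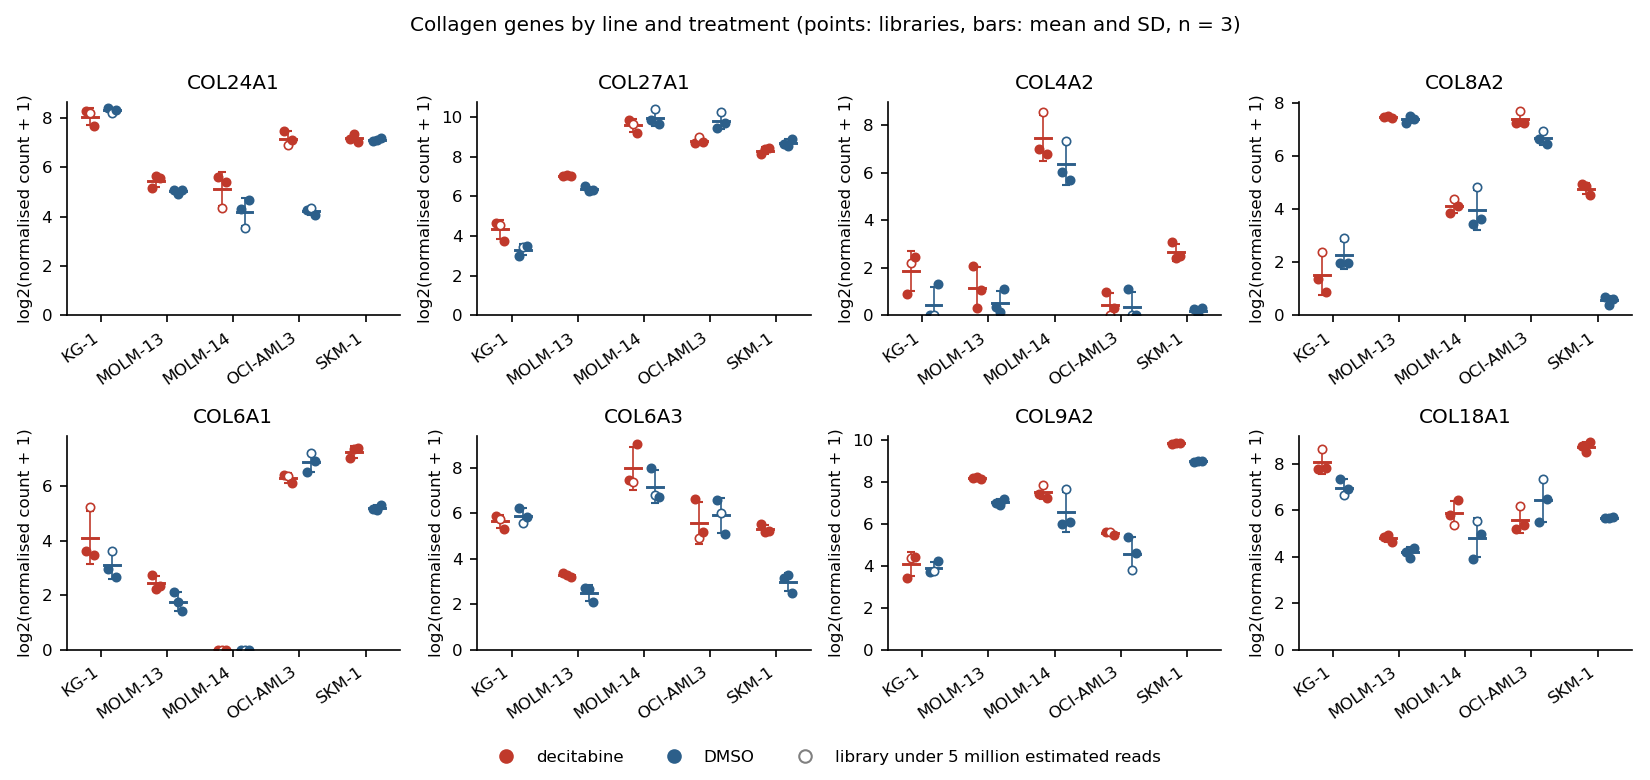
Log2(normalised count + 1) of 8 collagen genes in every library, with decitabine (red) left of DMSO (blue) in each line, bars at the mean with SD (n = 3) and open points for the 6 shallow libraries. COL24A1 separates in OCI-AML3, COL8A2, COL6A1, COL6A3 and COL18A1 separate in SKM-1, and COL27A1 lies higher after decitabine in KG-1 and lower in OCI-AML3.

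Collagen VI is built from chains of COL6A1, COL6A2 and COL6A3, and COL6A1 and COL6A3 rose in SKM-1. COL6A1 (ENSG00000142156.15, chromosome 21, 45981737 to 46005050, plus strand) had 129, 165 and 168 after decitabine against 34.5, 33.9 and 39.2 after DMSO there (2.07, SE 0.40, limma adjusted p = 0.000826). COL6A3 (ENSG00000163359.16, chromosome 2, 237324003 to 237414375, minus strand) had 44.8, 34.9 and 35.96 after decitabine against 7.897, 8.61 and 4.67 after DMSO (2.32, SE 0.47, limma adjusted p = 0.00132). Both pairs are clear of each other, whereas COL6A2 had 118, 372 and 126 after decitabine against 233, 39.7 and 143 after DMSO, with wide overlap (0.68, SE 0.86, limma adjusted p = 0.871). Over all lines COL6A2 ranged from 0 to 372 in decitabine and from 0 to 247 in DMSO libraries (mean difference -0.17). In OCI-AML3 COL6A1 had 83.9, 82.97 and 68.1 after decitabine against 90.3, 150 and 120.1 after DMSO, all lower but not called (-0.59, SE 0.40, limma adjusted p = 0.462). KG-1 had 11.2, 36.9 and 10.3 after decitabine against 6.89, 11.4 and 5.39 after DMSO, which overlap, MOLM-13 had 5.76, 3.69 and 4.04 after decitabine against 3.31, 2.397 and 1.68 after DMSO, which do not, and MOLM-14 was listed at 0 in all 6 libraries. The highest COL6A3 values were those of MOLM-14, 176, 166 and 528 after decitabine against 252, 111 and 102 after DMSO, which overlap. COL6A3 had 9.36, 8.83 and 8.11 after decitabine against 5.45, 5.35 and 3.24 after DMSO in MOLM-13, 96.7, 29.4 and 34.7 after decitabine against 95.7, 63.4 and 33.1 after DMSO in OCI-AML3 and 56.9, 53.2 and 38.5 after decitabine against 74.2, 46.05 and 55.2 after DMSO in KG-1. Of these 3 lines only MOLM-13 has groups that do not overlap. On the mean of 5 lines COL6A1 was higher (0.63, SE 0.18, limma adjusted p = 0.0121), and so was COL6A3 (0.68, SE 0.21, limma adjusted p = 0.0234). Without SKM-1 neither was called (COL6A1 0.28, limma adjusted p = 0.55; COL6A3 0.26, limma adjusted p = 0.592), and both calls were also lost without MOLM-13 (limma adjusted p = 0.0523 and 0.0971) and with quantile normalization (limma adjusted p = 0.12 and 0.21).

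COL7A1 (ENSG00000114270.17, chromosome 3, 48564073 to 48595267, minus strand), the anchoring fibril collagen that ties epidermis to dermis, was called in MOLM-14. It had 33.95, 27.2 and 9.12 after decitabine against 4.67, 0 and 2.87 after DMSO there, which do not overlap (2.94, SE 0.94, limma adjusted p = 0.0442). The call was lost in 13 of the 30 fits that left out 1 library each (limma adjusted p up to 0.214), without the 6 shallow libraries (2.01, limma adjusted p = 0.161) and with library weights (2.33, limma adjusted p = 0.259). It was also lost with a pseudocount of 5 (1.85, limma adjusted p = 0.0872), with no filter on low values (2.94, limma adjusted p = 0.0754), with quantile normalization (2.64, limma adjusted p = 0.071) and without the trended and robust variance (2.94, limma adjusted p = 0.0548). KG-1 had 20.1, 72.7 and 31.3 after decitabine against 5.57, 58.9 and 8.53 after DMSO, and MOLM-13 had 9.62, 9.097 and 5.45 after decitabine against 0.4895, 0.958 and 14.95 after DMSO. OCI-AML3 had 23.01, 15.3 and 81.5 after decitabine against 24.4, 95.7 and 14.4 after DMSO, and SKM-1 had 20.1, 16.5 and 14.7 after decitabine against 9.07, 41.6 and 32.95 after DMSO. In these 4 lines the groups overlap. The mean of 5 lines was not called (0.99, SE 0.42, limma adjusted p = 0.106). Without the 6 shallow libraries that mean was called (1.15, limma adjusted p = 0.0274).

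The FACIT collagen COL14A1 (ENSG00000187955.12, chromosome 8, 120059780 to 120372036, plus strand), which binds collagen fibrils in tendon and skin, gave the largest fitted differences of the 27 genes. In KG-1 it had 5800, 5141 and 5813 after decitabine against 49.04, 28.7 and 57 after DMSO, means that differ 124-fold. In SKM-1 it had 976, 964 and 952 after decitabine against 3.53, 0.766 and 0.699 after DMSO. Per kb it stood at 646 ± 44.5 in decitabine libraries of KG-1, above every other collagen gene there, and at 111 ± 1.38 in those of SKM-1, below COL9A2 with 216 ± 4.85 (SD, n = 3). OCI-AML3 had 17.1, 16.9 and 17.6 after decitabine against 3.48, 0 and 8.75 after DMSO, a small shift without overlap. MOLM-13 had 5.0, 4.42 and 1.86 after decitabine against 2.36, 1.31 and 2.07 after DMSO and MOLM-14 had 9.201, 14.5 and 15.7 after decitabine against 13.8, 24.3 and 12.2 after DMSO, both overlapping. The difference was called in SKM-1 (8.66, SE 0.54, limma adjusted p = 2.73e-11), KG-1 (6.98, SE 0.54, limma adjusted p = 9.37e-09) and OCI-AML3 (2.37, SE 0.54, limma adjusted p = 0.00872). The OCI-AML3 call was lost with library weights (1.65, limma adjusted p = 0.273), with that line fitted alone (2.37, limma adjusted p = 0.452) and without its DMSO replicate 2 (1.46, limma adjusted p = 0.0719). On the mean of 5 lines it was higher (3.67, SE 0.24, limma adjusted p = 5.84e-11). The lines differed (limma F-test, adjusted p = 1.34e-08): against the mean of the other 4, SKM-1 (6.23, SE 0.61, limma adjusted p = 1.36e-07) and KG-1 (4.13, SE 0.61, limma adjusted p = 0.000181) stood above, and MOLM-13 (-3.77, SE 0.61, limma adjusted p = 0.00132) and MOLM-14 (-4.96, SE 0.61, limma adjusted p = 2.33e-05) below.

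**Figure D4:**
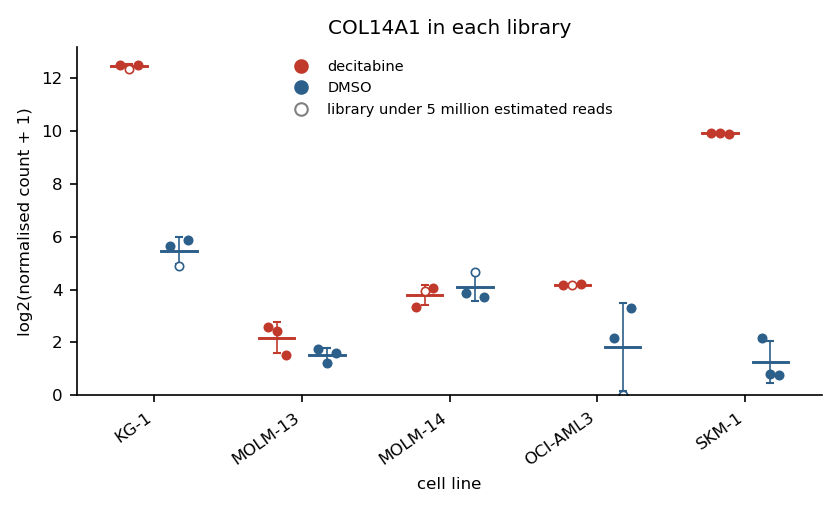
COL14A1 in every library as log2(normalised count + 1), decitabine (red) left of DMSO (blue), with bars at the mean and SD of 3 libraries and open points for the shallow libraries. The decitabine libraries of KG-1 and SKM-1 lie far above their DMSO libraries, those of OCI-AML3 lie above theirs by less, and the groups of MOLM-13 and MOLM-14 overlap.

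COL9A2 and COL9A3 encode chains of collagen IX, a cartilage collagen that coats fibrils of collagen II. With COL4A1 and COL4A2 they were the 4 collagen genes whose difference was above 0 in all 5 lines (9.53% of all tested genes). In OCI-AML3 the differences of COL4A1 (0.02, SE 0.82) and COL4A2 (0.08, SE 0.59) were near 0. Without the 6 shallow libraries COL4A1 was below 0 in OCI-AML3 (-0.62, SE 0.40) and COL9A2 in KG-1 (-0.04, SE 0.26), neither called. COL4A2 and COL9A3 stayed above 0 in all 5 lines. COL9A2 (ENSG00000049089.15, chromosome 1, 40300487 to 40317813, minus strand) had 888, 909 and 929 after decitabine against 482, 502 and 509.7 after DMSO in SKM-1, 290.3, 293 and 275 after decitabine against 126, 117 and 145 after DMSO in MOLM-13 and 47.2, 47.9 and 43.3 after decitabine against 39.9, 12.7 and 22.9 after DMSO in OCI-AML3. None of these 3 lines overlapped. MOLM-14 had 169.9, 227 and 148 after decitabine against 61.5, 199 and 65.5 after DMSO and KG-1 had 9.73, 19.8 and 20.4 after decitabine against 12.01, 12.2 and 17.7 after DMSO, which overlap. On the mean COL9A2 was higher (0.82, SE 0.16, limma adjusted p = 0.000527), and a difference between lines was not detected (limma F-test, adjusted p = 0.658). It was called in no line with the shared spread, and when fitted alone in MOLM-13 (1.14, limma adjusted p = 0.000351) and SKM-1 (0.87, limma adjusted p = 1.76e-05). Without the 6 shallow libraries COL9A2 was called in MOLM-13 (1.14, limma adjusted p = 0.00176), MOLM-14 (1.31, limma adjusted p = 0.00229) and SKM-1 (0.87, limma adjusted p = 0.00628).

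COL9A3 (ENSG00000092758.18, chromosome 20, 62816244 to 62841159, plus strand) was higher on the mean of 5 lines (1.14, SE 0.27, limma adjusted p = 0.00327). It had 57.5, 67.2 and 56.8 after decitabine against 14.04, 16.6 and 16.7 after DMSO in SKM-1, 171, 226 and 126 after decitabine against 74.2, 54.7 and 46.6 after DMSO in MOLM-14 and 80.6, 80.1 and 83.01 after decitabine against 56.1, 43.2 and 57.96 after DMSO in MOLM-13. None of these 3 lines overlapped. It was called in no line with the shared spread (SKM-1 1.88, SE 0.60, limma adjusted p = 0.0531), and when fitted alone in SKM-1 (1.88, limma adjusted p = 5.33e-05) and MOLM-13 (0.63, limma adjusted p = 0.0129). OCI-AML3 had 31.5, 18.7 and 60.4 after decitabine against 23.5, 22.6 and 11.3 after DMSO, which overlap, as do the values of KG-1, 3.78, 0 and 6.06 after decitabine against 0, 0 and 4.92 after DMSO. Without SKM-1 the mean was not called (0.96, limma adjusted p = 0.074). COL9A1, the remaining chain of collagen IX, was below the filter, with at most 20.8 in any library. An exon of COL9A3 overlaps one of TCFL5 on the opposite strand, whose mean difference was -0.01. Whether counting used the strand is not given in the sources used here, so reads of such partners may be mixed.

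COL21A1 (ENSG00000124749.17, chromosome 6, 56056590 to 56394094, minus strand), a FACIT collagen, had 54.1, 51.3 and 56.6 after decitabine against 23.5, 15.6 and 19.3 after DMSO in SKM-1, clear of each other (1.44, SE 0.73, limma adjusted p = 0.295; fitted alone 1.44, limma adjusted p = 0.000429). In OCI-AML3 it had 27.1, 0 and 8.598 after decitabine and was listed at 0 in all 3 DMSO libraries. The decitabine library at 0 is the shallow one, and the fitted difference (2.69, SE 0.73, limma adjusted p = 0.0277) depends on the pseudocount. It was lost in 5 of the 30 fits without 1 library, namely without decitabine replicate 1 (1.63, limma adjusted p = 0.165) or 3 (2.41, limma adjusted p = 0.0809) or any 1 DMSO replicate of OCI-AML3 (limma adjusted p = 0.0601 to 0.0759). The call held without the 6 shallow libraries (4.04, limma adjusted p = 0.000111) and with library weights (3.32, limma adjusted p = 0.00705). On the mean of 5 lines COL21A1 was higher (0.98, SE 0.33, limma adjusted p = 0.0344), a call lost in 11 of the 30 fits without 1 library (limma adjusted p up to 0.0628) and without OCI-AML3 (0.55, limma adjusted p = 0.0935), KG-1 (1.03, limma adjusted p = 0.0717) or MOLM-13 (1.16, limma adjusted p = 0.0557). It was also lost with a pseudocount of 0.5 (1.15, limma adjusted p = 0.0554), with no filter (0.98, limma adjusted p = 0.0626) and with quantile normalization (0.70, limma adjusted p = 0.0882). The call on the mean held without the 6 shallow libraries (1.27, limma adjusted p = 0.000373) and with library weights (1.06, limma adjusted p = 0.00145). KG-1 had 5.92, 3.39 and 4.77 after decitabine against 1.46, 2.62 and 2.74 after DMSO, MOLM-13 had 0.294, 1.61 and 0.238 after decitabine against 0, 0.746 and 0.331 after DMSO, and MOLM-14 had 0, 0 and 0.721 after decitabine against 2.28, 0 and 0 after DMSO, all low, with no overlap in KG-1 only. COL19A1 ranged from 2.39 to 52.9 in decitabine and from 0 to 56.6 in DMSO libraries, with an uncalled mean difference of 0.14.

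COL18A1 (ENSG00000182871.16, chromosome 21, 45405137 to 45513720, plus strand), the multiplexin from which endostatin is cut, rose in SKM-1. It had 437, 368 and 494 after decitabine against 50, 49.6 and 51.5 after DMSO (3.07, SE 0.41, limma adjusted p = 7.84e-06). The groups are far apart and the means differ 8.59-fold. KG-1 had 218, 397 and 223 after decitabine against 165, 99.98 and 120.2 after DMSO and MOLM-13 had 27.9, 29.7 and 23.7 after decitabine against 17.8, 14.6 and 20.1 after DMSO, both without overlap and neither called with the shared spread, and MOLM-13 was called when fitted alone (0.61, limma adjusted p = 0.0431). MOLM-14 had 55.4, 40.4 and 86.2 after decitabine against 14.02, 46.1 and 30.7 after DMSO, which overlap, and was called without the 6 shallow libraries (1.69, limma adjusted p = 0.00175). OCI-AML3 had 35.7, 72.9 and 39.9 after decitabine against 44.2, 163 and 88.9 after DMSO, which overlap. Against the mean of the other 4 lines SKM-1 stood above (2.59, SE 0.46, limma adjusted p = 0.000655) and OCI-AML3 below (-2.32, SE 0.46, limma adjusted p = 0.0053). The mean over 5 lines was higher (0.99, SE 0.18, limma adjusted p = 0.000278), but not without SKM-1 (0.47, limma adjusted p = 0.218). Exons of COL18A1 overlap exons of SLC19A1, the reduced folate carrier, on the opposite strand, and SLC19A1 fell on the mean (-0.35, SE 0.08, limma adjusted p = 0.00172). COL18A1, COL6A1 and COL6A2 lie within 1 region of chromosome 21, from position 45405137 to position 46132849.

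The other tested genes were not called on the mean or in a line in the main fit of all 30 libraries. COL23A1, among the most abundant per kb, ranged from 8.79 to 548 in decitabine and from 10.6 to 504 in DMSO libraries (0.08, SE 0.12, limma adjusted p = 0.71 on the mean). In SKM-1 it had 155, 154 and 195 after decitabine against 87.4, 105 and 119.6 after DMSO, without overlap (0.69, SE 0.27, limma adjusted p = 0.122; fitted alone 0.69, limma adjusted p = 0.00681). COL15A1, the other multiplexin, ranged from 6.78 to 194 in decitabine and from 5.66 to 124 in DMSO libraries (mean difference 0.21). COL25A1 ranged from 0 to 16.4 in decitabine and from 0 to 23.9 in DMSO libraries (0.56) and COL28A1 from 6.38 to 44.3 in decitabine and from 11.3 to 76.7 in DMSO libraries (0.11). Without the 6 shallow libraries COL25A1 was called on the mean (0.76, limma adjusted p = 0.00905), in MOLM-14 (1.99, limma adjusted p = 0.0107) and in MOLM-13 (1.30, limma adjusted p = 0.0431). It held at most 3.3 estimated reads in a MOLM-14 library and 13.9 in a MOLM-13 library.

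Of the 17 genes below the filter, COL3A1, a fibrillar collagen of vessels and gut wall, was seen in KG-1 alone, with 75.9, 14.3 and 7.54 after decitabine against 0, 0 and 0.953 after DMSO, and was listed at 0 in every library of the other lines. COL17A1 had 19.2, 8.25 and 10.01 after decitabine against 0, 0.789 and 0 after DMSO in SKM-1, and COL16A1 had 10.2, 6.99 and 9.59 after decitabine against 1.76, 0.593 and 0 after DMSO there and its highest value, 13.3, in a DMSO library of KG-1. COL13A1 reached 14.2 and COL22A1 23.1 in decitabine libraries of SKM-1, COL11A1 35.8 in a shallow decitabine library of OCI-AML3, and COL26A1 12.6 in a decitabine library of MOLM-13. The highest values of the others in any library were 12.5 (COL2A1), 11.9 (COL6A6), 10.4 (COL4A4), 9.51 (COL12A1), 8.02 (COL20A1), 4.299 (COL10A1), 3.98 (COL6A5), 1.98 (COL5A3) and 0.627 (COL4A3).

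The lines differed in the response of 8 of the 27 genes by the limma F-test, against 9.46% of all tested genes. Set against the mean of the other 4 lines, SKM-1 stood higher for 5 genes, COL14A1, COL8A2, COL18A1, COL6A1 and COL6A3 (2.86% of all tested genes), and lower for 0 (1.01%). KG-1 stood higher for COL14A1 and COL27A1 (1.92%) and lower for COL24A1 and COL8A2 (1.10%). OCI-AML3 stood higher for COL24A1 (1.41%) and lower for COL18A1 and COL27A1 (1.00%). MOLM-14 stood lower for COL14A1 and COL1A2 (1.99%) and higher for 0 (1.62%), and MOLM-13 lower for COL14A1 (0.952%) and higher for 0 (0.429%). On the mean of 5 lines, the 16 genes higher without the 6 shallow libraries include the 11, and 0 were lower (10.9%). Those added are COL1A2, COL5A1, COL5A2, COL7A1 and COL25A1. With library weights the same 11 were higher (16.6%) and 0 lower (9.87%).

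Genes that modify, export, cross-link, cut or bind collagen were taken from a list of 66. Of these 56 were tested, and 15 were higher (12.0% of all tested genes) and 2 lower (7.52%) on the mean of 5 lines, with a median of 0.21, beside 0.53 for the collagen genes and 0.06 for all tested genes. LOXL4, a lysyl oxidase family enzyme that cross-links collagen, was higher (2.61, SE 0.27, limma adjusted p = 1.37e-07), with line values from -0.30 in SKM-1 to 4.58 in MOLM-14. The gelatinases MMP9 (1.67, SE 0.33, limma adjusted p = 0.00055) and MMP2 (0.89, SE 0.19, limma adjusted p = 0.00163), which cut denatured collagen, were higher on the mean. Line values ran from -0.85 in KG-1 to 3.23 in SKM-1 for MMP9 and from -0.52 in SKM-1 to 2.23 in MOLM-14 for MMP2. Of the 12 tested receptors 5 were higher, among them MRC1, the macrophage mannose receptor (1.66, SE 0.19, limma adjusted p = 4.99e-07), with 5.05 in SKM-1 and 2.92 in KG-1, and ITGA1, the alpha chain of a collagen-binding integrin (0.97, SE 0.33, limma adjusted p = 0.0366). Also higher were ADAMTS14, a procollagen N-propeptidase (0.72, SE 0.24, limma adjusted p = 0.037), LOXL3 (0.65, SE 0.16, limma adjusted p = 0.00342) and P3H3 of the prolyl 3-hydroxylase family (0.56, SE 0.17, limma adjusted p = 0.0235). The 2 lower genes were COLGALT1, which adds galactose to collagen (-0.14, SE 0.03, limma adjusted p = 0.00155), and P4HA1, a prolyl 4-hydroxylase subunit (-0.14, SE 0.04, limma adjusted p = 0.0267). Against the same shares of all tested genes, 3 of 11 hydroxylases and partners were higher and 1 lower, 1 of 9 chaperones and export factors was higher, 1 of 7 genes of propeptide cleavage, 3 of 10 of cross-linking and assembly and 2 of 5 of breakdown, and 1 of 2 glycosyltransferases was lower.

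Called and uncalled collagen genes both spanned promoters poor and rich in CpG. Over the 44 RefSeq windows of collagen genes the median was 17 CpG per 300 bases, beside 14 over all 35116 windows, and 50% were CpG-rich (GC at least 55% and observed over expected CpG at least 0.6), beside 44.3%. The GC box GGGCGG, searched on both strands and itself holding a CpG, was in 54.5% of collagen windows and 45% of all windows. Of the 20 tested genes with a window, taking the window with the most CpG of each, the 10 called on the mean or in a line had a median of 23.5 CpG and 7 CpG-rich windows, and the 10 not called had a median of 32 and 6. COL6A3 with 4 CpG and COL18A1 with 46 were both called. COL14A1, which gave the largest fitted differences, has no window and is not among the 20. Across these 20 genes, which are not independent replicates, Spearman's rho between CpG number and the mean difference was 0.478, given as a description.

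**Figure D5:**
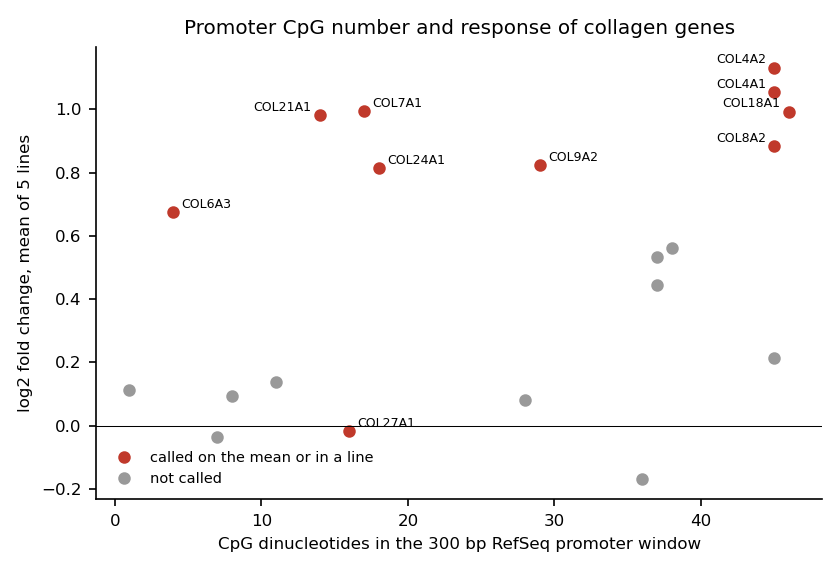
Mean log2 fold change over 5 lines against the number of CpG in the RefSeq promoter window for the 20 tested collagen genes with a window, coloured by whether the gene was called on the mean or in a line. Called genes lie between 4 and 46 CpG and genes not called between 1 and 45.

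Markers of other cell types were set beside these values. The summed level of 10 fibroblast and stroma markers was 304 to 318 in decitabine and 98.7 to 124 in DMSO libraries of SKM-1. It was made mainly by THY1 (means 131 after decitabine and 16.3 after DMSO) and ACTA2 (means 123 after decitabine and 50.4 after DMSO), while PDGFRA was at 0 in both arms and LUM and POSTN were at 0.0605 and 0.0714 after decitabine and 0 after DMSO. In KG-1 the sum was 100.2 to 183 in decitabine and 92.4 to 154 in DMSO libraries, with POSTN at 0 and LUM at means of 16.4 after decitabine and 1.44 after DMSO. Sums were 344 to 380 in decitabine and 268 to 280.3 in DMSO libraries of MOLM-13, 413 to 419.8 in decitabine and 221 to 265 in DMSO libraries of MOLM-14 and 483 to 591 in decitabine and 309 to 353 in DMSO libraries of OCI-AML3. Of the 10 markers, 4 to 6 had a decitabine mean below 10 in a line and 5 to 7 a DMSO mean below 10. The 4 chondrocyte markers summed to at most 25.1 after decitabine and 10.1 after DMSO. The 6 epithelial markers summed to 1236 to 1300 in decitabine and 501 to 548 in DMSO libraries of SKM-1, 310.4 to 436 in decitabine and 18.4 to 68.2 in DMSO libraries of KG-1 and 713 to 1174 in decitabine and 429 to 594 in DMSO libraries of MOLM-14. Sums were 129 to 171 in decitabine and 86.8 to 93.6 in DMSO libraries of MOLM-13 and 78.05 to 110.2 in decitabine and 53.6 to 95.2 in DMSO libraries of OCI-AML3. The keratin gene KRT8 had the widest gap in SKM-1 and KG-1, with means of 657 after decitabine and 3.27 after DMSO in SKM-1 and 312 after decitabine and 14.2 after DMSO in KG-1, while EPCAM had 544 after decitabine and 512 after DMSO in SKM-1 and was at 0 in both arms of OCI-AML3, KG-1 and MOLM-14. The 5 endothelial markers summed to 5334 to 5506 in decitabine and 1804 to 2244 in DMSO libraries of MOLM-14, 1068 to 1330 in decitabine and 365 to 566 in DMSO libraries of OCI-AML3 and 3767 to 4782 in decitabine and 2640 to 3189 in DMSO libraries of MOLM-13. Sums were 2501 to 2972 in decitabine and 1931 to 2136 in DMSO libraries of SKM-1 and 3841 to 4008 in decitabine and 3728 to 4281 in DMSO libraries of KG-1. PECAM1, which leukocytes also express, made most of these sums, with means of 5394 after decitabine and 2021 after DMSO in MOLM-14, and CDH5, the cadherin of endothelial junctions, had a mean of at most 7.49 after decitabine and 0.592 after DMSO in any line. Of the other endothelial markers, KG-1 had VWF at means of 293 after decitabine and 271 after DMSO. KDR had 38.5 after decitabine and 13.4 after DMSO there, and TEK 25.3 after decitabine and 10.4 after DMSO. Elsewhere VWF, KDR and TEK had means of at most 8.31 after decitabine and 0.977 after DMSO. The part of these cell types in the collagen values was not tested.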

How the data were processed

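The deposited table holds a signal per gene that is neither logged nor divided by gene length. Per the authors' name for the table, the authors made this signal from estimated counts normalised with DESeq2. Tools named in the submitters' processing notes are DESeq2, featureCounts, limma, Salmon 1.2.1 and STAR, with the build hg38. Their role and order, and whether counting used the strand, are not given in the sources used here. Per the labels' protocols, stranded total RNA libraries were read as single-end reads of 50 bp. Columns of SKM-1 and MOLM-13 are named by their labels, and columns of the other 3 lines were assigned from the line, the letter for the treatment and the replicate number in their names. The 12 columns of no labelled sample were not used here.

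Because 44.2 to 68.6% of low values per library came out as whole reads (tolerance 0.02), reads were not recovered and no count model was run. Genes with at least 10 normalised counts in at least 3 of 30 libraries (22168) were tested with limma 3.58.1 (R 4.3.3) on log2(value + 1), with 10 group means, 20 residual degrees of freedom, trended and robust variance estimation and Benjamini-Hochberg adjustment over all tested genes. The lines, their mean, each line against the mean of the other 4, and F-tests between lines were computed. The script was tested on simulated data. Alternatives were the pseudocount, the filter, the normalization, the variance options, library weights, a replicate block, leaving out libraries or lines, and, added after seeing the data, each line fitted alone. Collagen genes called on the mean or in a line are given with every library, the other tested ones with their range and mean difference, those below the filter with their highest value, and of the pathway list the 8 called genes with the largest absolute mean difference. Library values of uncalled genes, and COLGALT1 and P4HA1, were added after their values were seen. Members and lists were chosen with earlier results of these data known. Gene positions are those of GENCODE 29 (GRCh38), and promoter sequences are from RefSeq (GRCh38.p14). Depth was 1.97 to 75 M estimated reads per library (M, 1000000 reads).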

Additional observations from a re-analysis of the deposited data

Results flagged for a closer look

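The response to decitabine differed between the 5 lines for 8 collagen genes, by the limma F-test with adjustment over all tested genes. The adjusted p was 1.34e-08 for COL14A1, 3.59e-06 for COL8A2 and 2.98e-05 for COL24A1. It was 0.000652 for COL27A1 and 0.000875 for COL18A1, and 0.0184 for COL6A1, 0.0265 for COL1A2 and 0.0415 for COL6A3.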

How the results depend on the processing

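The count of collagen genes called on the mean of 5 lines was 11, and 7 with quantile normalization, 7 without MOLM-13, 3 without SKM-1 and 2 with the 3 lines KG-1, OCI-AML3 and MOLM-14 alone. Leaving out 1 library at a time gave 9 to 12. In SKM-1 the count was 6, and 13 with library weights, 12 without the shallow libraries, 12 with the line fitted alone and 6 to 7 without 1 library. In MOLM-13 it was 0, and 10 with library weights, 4 without the shallow libraries, 5 fitted alone and 0 to 1 without 1 library. In KG-1 it was 2, and 3 without the shallow libraries, 1 fitted alone and 1 to 2 without 1 library. In MOLM-14 it was 4, and 6 without the shallow libraries, 2 with quantile normalization, 0 fitted alone and 2 to 5 without 1 library. Of those 4 only COL24A1 was tested with MOLM-14 fitted alone. In OCI-AML3 it was 4, and 2 with library weights, 2 fitted alone and 1 to 5 without 1 library. The 15 gene and line pairs that differed from the other lines became 26 without the shallow libraries. Of the pathway genes 17 were called on the mean, and 11 without KG-1, 8 without SKM-1 and 3 with the same 3 lines alone. Shares over all tested genes also moved. On the mean 12.0% were higher, and 19.1% without the shallow libraries, 6.50% without SKM-1 and 3.72% with those 3 lines alone. With library weights the share of higher genes rose from 5.70% to 22.7% in SKM-1 and from 1.45% to 13.8% in MOLM-13. For counts without a share here or above, none is given. The causes were not tested. None of these alternatives reversed a called difference.

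Replicate numbers are shared between arms, and the labels do not say that they mark a shared culture or day. Deviations of same-numbered libraries correlated at -0.0225 to 0.153, above 0.1 in 6 of 15 pairs, so not in every pair, and the libraries were not treated as paired. In KG-1, OCI-AML3 and MOLM-14 all 9 decitabine libraries correlated best with their own number (0.0703 to 0.153, beside at most 0.0519 for other numbers), against 3 of 6 in SKM-1 and MOLM-13. In those 3 lines replicate 2 of both arms is shallow, so shared replicate sets and shared depth cannot be told apart. With the replicate block, COL9A2 was called in MOLM-13 (1.14, limma adjusted p = 0.0447), the 1 collagen gene called there, and COL9A3 in SKM-1 (1.88, limma adjusted p = 0.0223), and the call of COL7A1 in MOLM-14 was lost (2.94, limma adjusted p = 0.0641). Low genes in the 6 shallow libraries rest on few reads, which limits those 3 lines.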
